A study of Mus musculus with 11 samples.

Results

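The Rtl1-antisense miRNAs are the mature products of 5 hairpins of the imprinted Dlk1-Dio3 region that are read from the strand opposite to the Rtl1 gene. They were taken by name as both arms of the mouse (mmu) miR-431, miR-433, miR-127, miR-434 and miR-136, which gave 10 of the 1966 mature miRNAs listed. All 10 passed the filter on low counts that left 730 miRNAs for testing. One further miRNA between the same hairpins, miR-432 (GRCm38.p6 chr12:109595006-109595028, plus strand), was listed at 0 in all 11 libraries.

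A miRNA hairpin is cut out of its primary transcript by the microprocessor, in which the nuclease Drosha is held by the RNA-binding protein DGCR8. Dicer then removes the loop, and of the paired arms, called 5p and 3p by their place in the hairpin, 1 is usually kept more often than the other in an Argonaute protein. In the Dlk1-Dio3 region the miRNAs come from the maternal allele, from long non-coding transcripts that include Meg3, Rian and Mirg, while Dlk1, Rtl1 and Dio3 are expressed from the paternal allele. Rtl1 is a retrotransposon-derived gene needed for the placenta, and because the antisense miRNAs match it along their whole length they can direct cleavage of its mRNA.

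Small RNAs were sequenced from mouse embryonic stem cells, which were cultured on gelatin without feeder cells in 2i medium with LIF. The E518K group had 3 libraries (clones 8, 13 and 15), labelled DGCR8 E518K/E518K, from cells that carried the doxycycline-inducible vector pSB ET iE-FlagDGCR8-E518K. E518K is a change in the first double-stranded RNA-binding domain of DGCR8 that recurs in Wilms tumours. The KO group had 3 libraries labelled DGCR8 -/- and not transfected, and the WT group had 3 libraries (clones 10, 12 and 16), labelled DGCR8 wt/wt, with the inducible vector pSB ET iE-FlagDGCR8-wt. Both vectors had been introduced together with the transposase vector pCMV(CAT)-SB100X. All 9 of these libraries came from cells given doxycycline at 300 ng/mL for 48 h. E518K clone 8 and WT clone 10 were also sequenced untreated, with 1 library each, to look for leaky expression. All 11 libraries shared 1 strain label. The labels do not say whether the genotypes of the vector clones refer to the endogenous gene. The series text gives independent clones for each condition, whereas the KO titles all name clone 261, so it cannot be told whether the spread between the KO libraries is technical.

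Total miRNA counts ran from 1050564 to 1797240 in induced E518K, from 166676 to 208846 in KO and from 3394216 to 6128734 in induced WT, and were 264507 in untreated E518K and 1421247 in untreated WT. DGCR8 mRNA is not measured by these libraries. The 12 arms of miR-290a to miR-295, which mark mouse embryonic stem cells and need DGCR8 themselves, held 15.6% to 18.0% of counts in induced E518K, 0.124% to 0.369% in KO and 34.1% to 39.4% in induced WT, and 5 of them were lower in E518K than in WT. Of 5 fibroblast markers 0 were higher and 2 lower in E518K than in WT, and they held 0.163% to 0.220% of counts in E518K, 1.23% to 1.74% in KO and 0.220% to 0.317% in WT. Of 5 neural markers 3 were lower in E518K than in WT (0.105% to 0.151% of counts in E518K, 0.0129% to 0.0180% in KO and 0.215% to 0.451% in WT). The liver marker miR-122-5p, 1 of 3 muscle markers and 1 of 2 tested blood markers were higher in E518K than in WT. MiR-122-5p had 48 counts over the 3 E518K libraries, and the blood marker miR-223-3p was at 0 in every library. The part of these cell types in the results was not tested. In bulk libraries fewer cells of a type and less RNA per cell cannot be told apart.

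The mature sequences are shown because the 2 arms of a hairpin differ in the results. They are from RefSeq (GRCm38.p6, chromosome 12), 5′ to 3′, with the seed (bases 2 to 8) in capitals.
mmu-miR-431-5p: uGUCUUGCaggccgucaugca
mmu-miR-431-3p: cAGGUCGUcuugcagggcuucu
mmu-miR-433-5p: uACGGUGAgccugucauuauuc
mmu-miR-433-3p: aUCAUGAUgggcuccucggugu
mmu-miR-127-5p: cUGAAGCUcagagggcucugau
mmu-miR-127-3p: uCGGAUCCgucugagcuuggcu
mmu-miR-434-5p: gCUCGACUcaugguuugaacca
mmu-miR-434-3p: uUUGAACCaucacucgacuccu
mmu-miR-136-5p: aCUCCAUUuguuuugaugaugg
mmu-miR-136-3p: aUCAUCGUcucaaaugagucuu
No seed was shared among these 10 miRNAs, and none of the 10 seeds occurred in another mature miRNA of the RefSeq table. The arms are 21 or 22 bases long, so levels were not divided by length.

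The 5 hairpins lie on the plus strand within 4942 bases, in the order miR-431 (chr12:109590447-109590537), miR-433 (chr12:109591715-109591838), miR-127 (chr12:109592846-109592915), miR-434 (chr12:109594506-109594599) and miR-136 (chr12:109595327-109595388). Each lies wholly inside the coding part of Rtl1, in antisense to it. Of the 5232 coding bases of Rtl1, miR-136 covers bases 16 to 77, next to the start codon, miR-434 covers 805 to 898, miR-127 covers 2489 to 2558, miR-433 covers 3566 to 3689, and miR-431 covers 4867 to 4957. Another hairpin, miR-3071 (chr12:109595318-109595397, minus strand), runs over miR-136 in the sense of Rtl1. The hairpins of miR-136, miR-3071 and miR-127 are shown with both mature arms in capitals, since these are the ones whose arms shifted.
Mir136: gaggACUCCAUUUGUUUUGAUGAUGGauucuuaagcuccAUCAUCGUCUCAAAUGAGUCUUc
Mir3071: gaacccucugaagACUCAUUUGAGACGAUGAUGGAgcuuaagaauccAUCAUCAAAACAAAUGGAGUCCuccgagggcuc
Mir127: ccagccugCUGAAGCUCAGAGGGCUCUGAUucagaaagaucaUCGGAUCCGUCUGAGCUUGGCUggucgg
MiR-136-5p and miR-3071-3p overlap by 20 bases and miR-136-3p and miR-3071-5p by 19 bases, all of them complementary. How the authors' counting treated strand is not stated in the labels or headers. The counts of miR-136-3p and miR-3071-5p were the same in 10 of 11 libraries and differed by 2 in the other. Those of miR-136-5p and miR-3071-3p were the same in 6 libraries and differed by at most 42 in the other 5, as with 578 and 620 in WT clone 16. Whether the same reads were counted under both names is not stated, and both names are given as uncertain.

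Between induced E518K and induced WT, miR-136 was the only member hairpin with both arms called, and they moved in opposite directions. MiR-136-5p and miR-127-5p rose, miR-136-3p and miR-433-5p fell, and the other 6 did not pass the test (edgeR's quasi-likelihood test, Benjamini-Hochberg adjusted over 730 miRNAs, threshold 0.05). When libraries were scaled on the summed counts of miRNAs that need no DGCR8, the median log2 change of all tested miRNAs was -2.90, miR-136-5p was higher and the other 9 members were lower. Of all tested miRNAs 28.2% were higher and 35.3% lower, 63.6% in all, so a count of 4 of 10 members called was below the background share. The values of 4 of 10 members did not overlap between the 2 groups, where 64.5% of all tested miRNAs did not. The median log2 change of the members was -0.35, beside -0.14 over all tested miRNAs. Levels are given as CPM after TMM scaling (scaled CPM).

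MiR-136-5p, the arm written first in the miR-136 hairpin, had 1728, 784 and 1415 scaled CPM in E518K clones 8, 13 and 15, against 85.8, 71.3 and 107 scaled CPM in WT clones 10, 12 and 16. Every E518K clone lay above every WT clone. The mean was 1309 ± 481 scaled CPM in E518K and 88.1 ± 18.0 in WT (SD, n = 3 each), a log2 change of 3.89 ± 0.43 (SE) with an edgeR adjusted p of 3.4e-17. Its partner moved the other way. MiR-136-3p had 419, 321 and 270 scaled CPM in E518K, against 706, 666 and 781 in WT. All 3 E518K clones lay below all 3 WT clones, with a log2 change of -1.09 ± 0.39 and an edgeR adjusted p of 0.0092. The call of miR-136-3p was lost without WT clone 16 (log2 change -0.34), without E518K clone 8 (adjusted p of 0.067) and without E518K clone 15 (0.076), and when libraries were scaled by their total counts (0.17). MiR-136-5p passed in each of the 13 alternatives that held it (it was left out when opposite strands were merged), with a log2 change of 1.13 and an adjusted p of 0.0064 under scaling on the DGCR8-independent miRNAs.

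The names on the opposite strand gave close values. MiR-3071-3p averaged 1310 ± 482 scaled CPM in E518K and 93.0 ± 19.5 in WT (SD, n = 3 each), with a log2 change of 3.81 ± 0.43. MiR-3071-5p had the same counts as miR-136-3p in all 6 of these libraries, and hence the same log2 change of -1.09. Thus the arm that rose was the 5p arm if named as miR-136 and the 3p arm if named as miR-3071.

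MiR-127-5p had 2230, 1228 and 2010 scaled CPM in E518K clones 8, 13 and 15, against 600, 461 and 638 in WT clones 10, 12 and 16. The groups were apart, by a log2 change of 1.69 ± 0.38 with an edgeR adjusted p of 4.2e-05, which became -1.08 with scaling on the DGCR8-independent miRNAs. MiR-127-3p, the arm for which miR-127 is best known, averaged 1121 ± 394 scaled CPM in E518K and 1059 ± 205 in WT (SD, n = 3 each). These ranges overlapped and the log2 change was 0.08 ± 0.37, with an edgeR adjusted p of 0.85.

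MiR-433-5p was the rarest member, with 13.1, 7.48 and 22.2 scaled CPM in E518K, from 9 to 22 counts per library, against 35.3, 27.6 and 33.4 scaled CPM in WT. Its log2 change of -1.19 ± 0.52 had an edgeR adjusted p of 0.038, and the call was lost under 10 of 14 alternatives, such as DESeq2 (0.068). It was lost without any 1 of WT clones 10, 12 and 16 (adjusted p of 0.13, 0.11 and 0.65) or of E518K clones 8 and 13 (0.28 and 0.25). MiR-433-3p, the abundant arm, had 461, 251 and 266 scaled CPM in E518K and 373, 411 and 453 in WT. E518K clone 8 was above all WT clones and the other E518K clones were below all of them, and the log2 change of -0.34 ± 0.39 did not pass.

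MiR-431-5p averaged 156 ± 22.3 scaled CPM in E518K and 201 ± 57.8 in WT, and miR-431-3p averaged 192 ± 87.8 in E518K and 132 ± 26.4 in WT (SD, n = 3 each). MiR-434-5p, the most abundant member in WT, averaged 875 ± 227 scaled CPM in E518K and 1328 ± 257 in WT, and miR-434-3p averaged 235 ± 125 in E518K and 351 ± 60.3 in WT. All 4 overlapped between the groups, with log2 changes from -0.60 to 0.54 and edgeR adjusted p from 0.15 to 0.43. Without WT clone 16, miR-431-5p, miR-433-3p, miR-434-5p and miR-434-3p had log2 changes of 0.53, 0.42, 0.18 and 0.25, above 0, and miR-431-3p passed the test (1.43, adjusted p of 0.017). MiR-434-5p passed with DESeq2 (-0.82, adjusted p of 0.043).

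**Figure D1:**
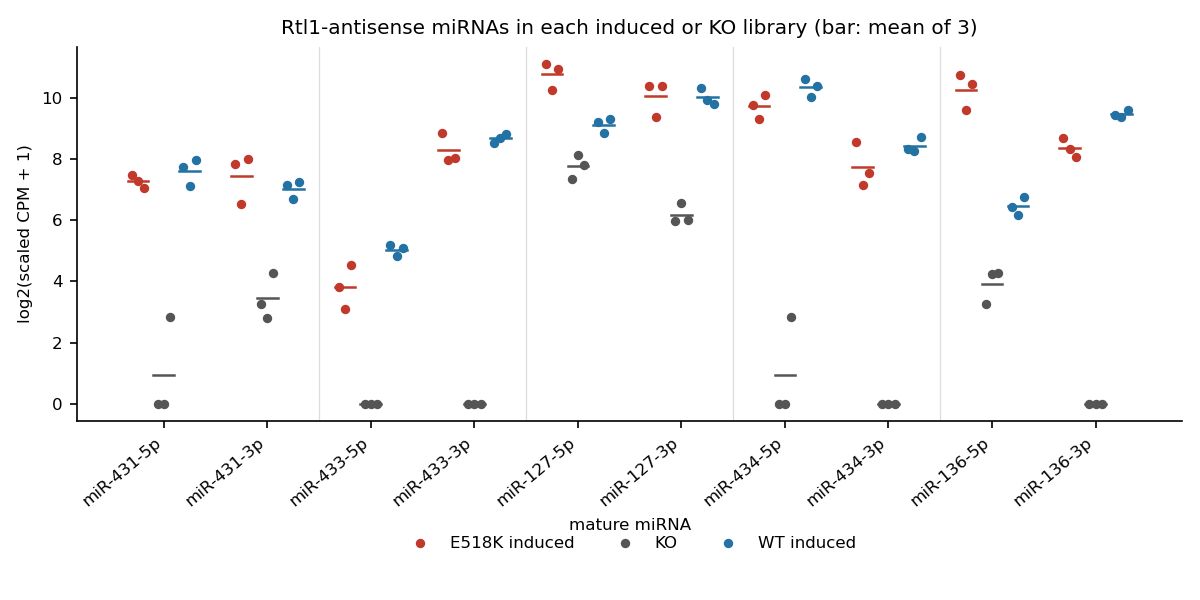
Level of each member on the log2(scaled CPM + 1) scale in the induced E518K, KO and induced WT libraries, with a point for each library and a bar for the mean of 3. MiR-136-5p is the member in which E518K stands farthest above WT (1309 against 88.1 scaled CPM on average), and 4 members are at 0 in all KO libraries.

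The balance between the arms of a hairpin does not depend on how libraries are scaled. It was tested as log2 of the 5p to 3p ratio, with 2 added to each count, in 163 hairpins that had both arms (limma, robust and with trend, adjusted over 163). In all, 15.3% of these hairpins were called, 7.98% with the 5p arm up in E518K and 7.36% with it down. Hairpins with a copy on the opposite strand enter with mirrored differences, such as miR-299a (2.47) and miR-299b (-2.47). A called pair of this kind adds to both shares, and the shares without such copies were not counted. MiR-136 and miR-127 were called, both toward 5p, and the other 3 members were not.

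For miR-136 the 5p arm made up 80.5%, 71.0% and 84.0% of both arms in E518K clones 8, 13 and 15, against 10.8%, 9.68% and 12.1% in WT clones 10, 12 and 16. The main arm was thus 5p in every E518K clone and 3p in every WT clone. The difference of log2 ratios was 4.94 ± 0.35 (SE), a 30.6-fold change of the ratio, with a limma adjusted p of 1.3e-05. It ranked first of 163 hairpins, and miR-3071, the hairpin on the opposite strand with close counts under reversed arm names, ranked last with -4.86. A two-sided exact permutation test of the 6 libraries gave 0.1, the smallest p that 3 against 3 allows.

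For miR-127 the 5p arm made up 62.3%, 64.8% and 59.8% in E518K, against 31.7%, 31.9% and 41.5% in WT. The 5p arm was in the majority in each E518K clone and in the minority in each WT clone. The difference of log2 ratios was 1.63 ± 0.29, a 3.09-fold change of the ratio that ranked 12 from the top, with a limma adjusted p of 0.0050 and an exact permutation p of 0.1, again the smallest possible. Both differences kept their side of the threshold in each limma alternative, with adjusted p up to 0.00098 for miR-136 and up to 0.039 for miR-127.

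The other hairpins did not pass. The 5p share of miR-434 averaged 79.2% ± 8.07 in E518K and 78.9% ± 3.60 in WT, with a difference of log2 ratios of 0.07 ± 0.39. That of miR-431 averaged 47.1% ± 14.5 in E518K and 60.0% ± 2.46 in WT (-0.75 ± 0.42, limma adjusted p of 0.24), and that of miR-433 averaged 4.45% ± 2.81 in E518K and 7.27% ± 1.22 in WT (-0.76 ± 0.41, 0.24; SD, n = 3 each). Both had overlapping ranges. Without E518K clone 13 the difference of miR-431 was -1.22 with an adjusted p of 0.023, and without E518K clone 15 that of miR-433 was -1.24 with 0.023.

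**Figure D2:**
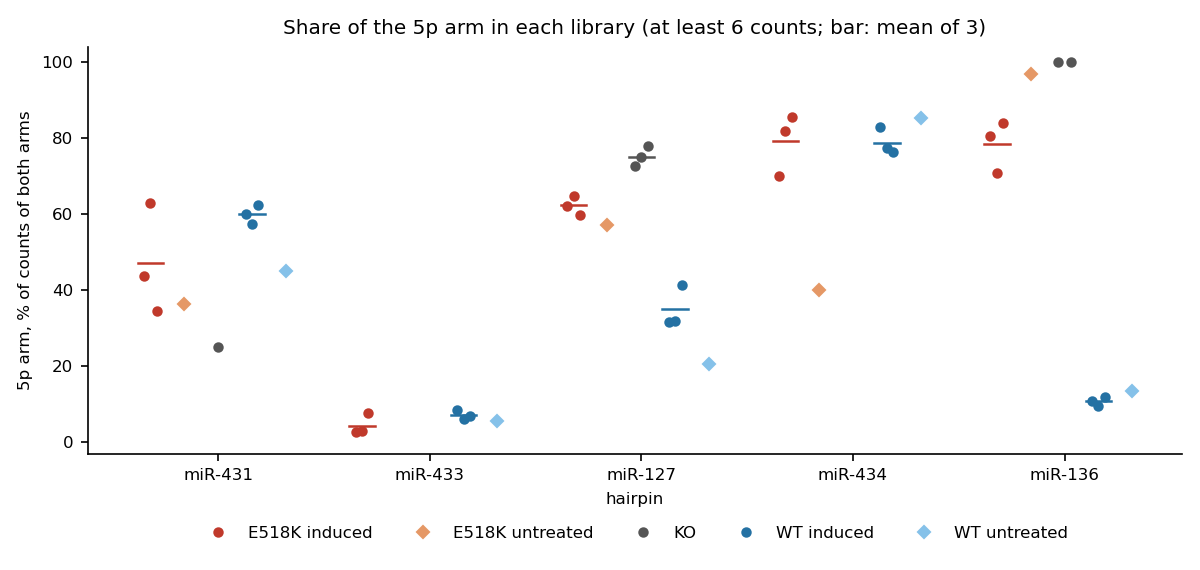
Share of the 5p arm among the counts of both arms of each hairpin, in percent, with a point for each library that had at least 6 counts and a bar for the mean of 3. For miR-136 the E518K libraries lie at 71.0% to 84.0% and the WT libraries at 9.68% to 12.1%, while for miR-434 the 2 groups lie together.

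**Figure D3:**
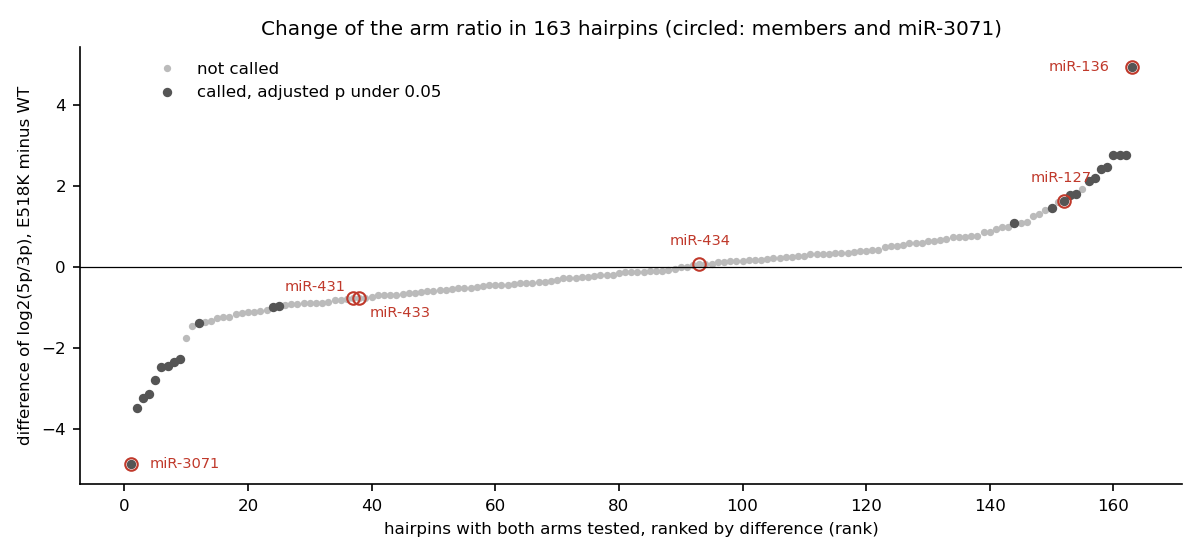
Difference of log2(5p/3p) between induced E518K and induced WT for 163 hairpins, ranked from lowest to highest, with called hairpins in dark grey and the members and miR-3071 circled. MiR-136 is at the top with 4.94 and miR-3071, on the opposite strand with close counts, is at the bottom with -4.86.

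The hairpins also differ in sequence and folding. With mature arms taken off, the stretch between them is 12 bases in miR-127, 13 in miR-136, 15 in miR-434, 22 in miR-431 and 30 in miR-433, beside a median of 16 over 644 hairpins with both arms. The letters UGU, searched between the arms on the hairpin strand alone because the product is RNA, occur there in miR-433 only among the 5, and in 31.5% of the 644 hairpins. GUG occurs there in miR-433 and miR-434, and in 26.7% of all. Folded with RNAfold's energy model, miR-127 had -0.501 kcal/mol per base and miR-433 had -0.361, with 15.7% and 68.4% of hairpins more stable per base, and miR-136 had -0.455 (28.9%). The 2 hairpins whose arm ratio passed were thus the 2 with the shortest stretch between the arms, which is a description of 5 hairpins and was not tested.

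In KO against induced WT, with the same WT libraries as above, all 10 members were lower and did not overlap between groups. Of all tested miRNAs 58.4% were lower and 30.0% higher, 88.4% in all, and 84.9% did not overlap. The median log2 change of the members was -7.67, or -4.14 with the members at 0 set to their bound, beside -3.54 and -0.31 over all tested miRNAs. The 3 KO libraries had 357 counts of the members in all.

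MiR-127-5p was the member that stayed highest without DGCR8. It had 164, 279 and 226 scaled CPM in KO libraries 1, 2 and 3, against 600, 461 and 638 in WT clones 10, 12 and 16. All 3 KO libraries were below all 3 WT clones, with a log2 change of -1.35 ± 0.39 and an edgeR adjusted p of 0.00085. This call was lost without KO library 2 (-0.82, adjusted p of 0.12), KO library 3 (-0.73, 0.15), WT clone 10 (-0.84, 0.085) or WT clone 12 (-0.94, 0.076), and with opposite strands merged (-0.79, 0.074). With total counts the log2 change was 0.20. MiR-127-3p had 61.8, 93.0 and 64.1 scaled CPM in KO, against 1290, 987 and 901 in WT, a log2 change of -3.86 ± 0.44 (edgeR adjusted p of 2.3e-17). The 2 arms of miR-127 made up 68.3% and 22.7% of all member counts in KO, as 244 and 81 counts, against 11.8% and 20.5% in WT.

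MiR-136-5p had 8.53, 18.0 and 18.3 scaled CPM in KO, from 16 counts in all, with a log2 change of -2.60 ± 0.52 against WT (edgeR adjusted p of 1.0e-06, lost with total counts at 0.080). MiR-431-3p had 12 counts in all and a log2 change of -3.61 ± 0.55. MiR-431-5p and miR-434-5p had 2 counts each, in KO library 3. Their ratios of WT to KO were 118 (95% counting interval 21.2 to 4676) and 737 (132 to 29104). The remaining arms, miR-433-5p, miR-433-3p, miR-434-3p and miR-136-3p, were at 0 in every KO library. Against a floor of 6 counts per library they were at least 1.96-fold, 25.2-fold, 21.4-fold and 43.8-fold lower in KO than in WT.

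The arm shares of KO libraries rest on few counts. The 5p share of miR-127 was 72.6%, 75.0% and 77.9% in the 3 KO libraries, from 95 to 124 counts each, above every E518K and every WT value given above. For miR-136 all 16 KO counts were of the 5p arm, with exact (Clopper-Pearson) 95% intervals on halved counts that reach down to 15.8%, 29.2% and 29.2% per library. The arm ratio of KO was not tested.

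In induced E518K against KO, all 10 members were higher and did not overlap between groups, where 41.9% of tested miRNAs were higher and 26.2% lower, 68.1% in all, and 67.5% did not overlap. This comparison shares its libraries with the 2 above. The median log2 change of the members was 6.95, or 4.23 with members at 0 set to their bound, beside 1.35 and 0.0 over all tested miRNAs. MiR-127-5p differed least among the members with KO counts (log2 change 3.04 ± 0.41, edgeR adjusted p of 2.1e-12), followed by miR-127-3p (3.95 ± 0.44), miR-431-3p (4.15 ± 0.56) and miR-136-5p (6.49 ± 0.54). MiR-431-5p and miR-434-5p had ratios of E518K to KO of 90.0 (95% counting interval 16.0 to 3560) and 488 (87.5 to 19285). MiR-433-3p, miR-434-3p and miR-136-3p were at least 19.9-fold, 14.3-fold and 20.6-fold higher in E518K, and miR-433-5p, which passed the test, gets no fold since its E518K mean of 14.2 scaled CPM was below the mean KO floor of 16.4.

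The other miRNAs of the imprinted region had lower medians in E518K than the members. Of 16 tested miRNAs of the Meg3 and Rian side, without copies on the opposite strand, 1 was higher and 14 were lower in E518K than in WT, with a median log2 change of -3.35. The 1 that was higher, miR-3070-5p, named here after its values were seen, was at 0 in all WT libraries. The most abundant miRNA of this side, miR-341-3p, averaged 61.2 ± 16.8 scaled CPM in E518K and 3387 ± 569 in WT (SD, n = 3 each; log2 change -5.79 ± 0.46). Of 54 tested miRNAs of the cluster from miR-379 to miR-410, further along the same strand, 9 were higher and 28 lower, with a median of -1.43, or -1.24 with miRNAs at 0 set to their bound. The change was not even along the cluster, as seen in its tested miRNAs whose names gave a position in the RefSeq table. Of these, the ones from miR-543 to miR-300 had log2 changes from -0.04 (miR-543-3p) to 1.89 (miR-667-5p). Those from miR-668 to miR-369 ran from -1.32 (miR-377-3p) to 3.30 (miR-412-3p), and both stretches were level with the members. MiR-376c-3p was tested but had no such position and is in neither range. These stretches are named after their values were seen. The most abundant miRNA of the cluster, miR-379-5p, averaged 159 ± 68.8 scaled CPM in E518K and 7267 ± 1863 in WT (SD, n = 3 each; log2 change -5.52 ± 0.45). No test was run between the lists. A change of scaling shifts all miRNAs by nearly the same log2 amount, so it cannot test the order of the 3 medians. That order was the same under all 5 scalings. Over them the median minus that of all tested miRNAs ran from -0.27 to -0.21 for the members (log2 scale). It ran from -3.32 to -3.21 for the Meg3 and Rian side and from -1.36 to -1.29 for the cluster from miR-379 to miR-410.

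**Figure D4:**
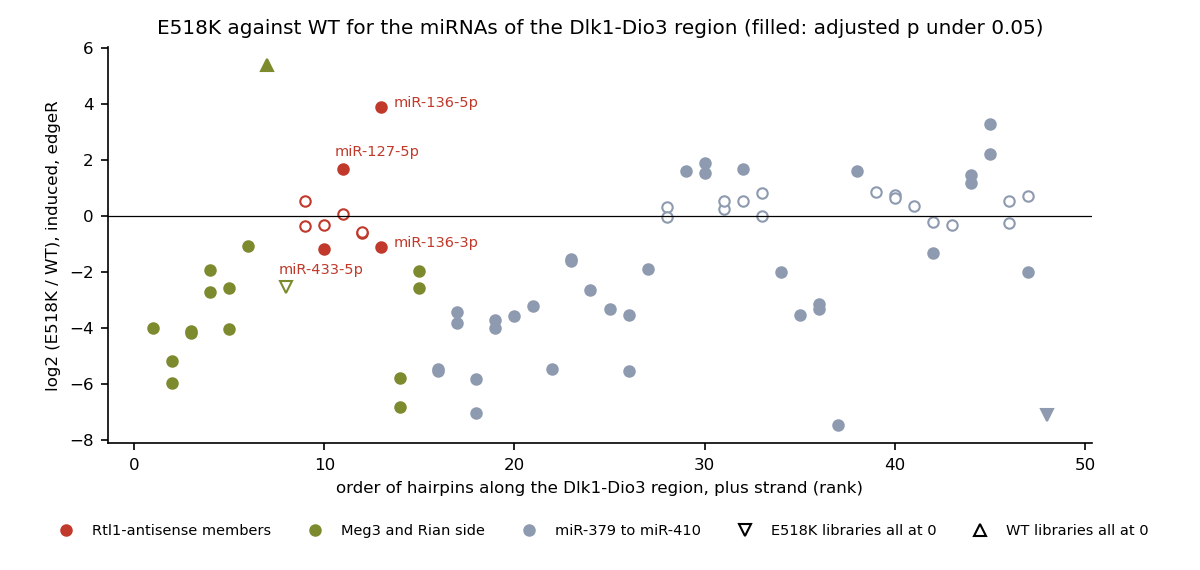
Log2 change of E518K over WT for the tested miRNAs of the Dlk1-Dio3 region, placed by the order of their hairpins on the plus strand. Filled points passed the edgeR test, and triangles mark those where 1 group was at 0. Tested miRNAs whose names gave no position in the RefSeq table, such as miR-376c-3p, are not drawn. The 10 members lie between -1.19 and 3.89. Most hairpins of the Meg3 and Rian side and the first ones of the cluster from miR-379 to miR-410 lie lower, while 2 stretches of that cluster lie level with the members.

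As shares of the counts of all 3 lists, the members made up 21.8% ± 0.66 in E518K, 63.0% ± 1.91 in KO and 10.4% ± 0.37 in WT (SD, n = 3 each). The ranges were 21.0% to 22.2% in E518K, 60.8% to 64.4% in KO and 10.0% to 10.7% in WT, so that the 3 groups were apart. The KO shares rest on 174 to 217 counts of the 3 lists per library. In KO miR-127-5p and miR-127-3p made up 68.3% and 22.7% of the member counts. With the 4 members called between E518K and WT left out of both the members and the total, the other 6 held 11.3% ± 0.65 in E518K, 31.8% ± 3.37 in KO and 7.65% ± 0.12 in WT. Their share was larger in every E518K library (10.5% to 11.8%) than in any WT library (7.53% to 7.76%). These 6 were picked by the test on the same libraries. The share also depends on the other 2 lists, whose medians were lower in E518K, so it restates that difference and is no separate result about the members. Of all miRNA counts of a library the members held 0.550% ± 0.103 in E518K, 0.0664% ± 0.0123 in KO and 0.337% ± 0.118 in WT.

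Untreated libraries had 1 sample for each vector, so no test was run on induction. Induction is given under TMM scaling alone. The 2 libraries of a clone were held to 1 floor, that of the shallower one (19.1 scaled CPM in E518K clone 8 and 8.75 in WT clone 10). Lower values were set to it, and a miRNA at or under it in both libraries got no value. In E518K clone 8, all 9 members with a value were over 2-fold higher with doxycycline than without, where 42.9% of 438 miRNAs were higher by that much and 26.7% lower. In WT clone 10, 0 of 10 were over 2-fold higher with doxycycline and 7 were over 2-fold lower, where 28.4% of 524 miRNAs were higher and 21.0% lower. The median log2 difference of induced from untreated was 3.06 in E518K clone 8, beside 0.58 over its 438 miRNAs, and -1.46 in WT clone 10, beside 0.17 over its 524. In untreated E518K clone 8 miR-433-3p, miR-434-5p, miR-434-3p and miR-136-3p were at or under the floor, so their differences are lower bounds.

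MiR-127-3p had 1348 scaled CPM in induced E518K clone 8 and 403 in the untreated clone, whereas it had 1290 in induced WT clone 10 and 8275 in the untreated clone. MiR-434-5p had 883 scaled CPM in induced E518K clone 8 and 12.7, from 4 counts, in the untreated clone, and it had 1571 in induced WT clone 10 and 3509 in the untreated clone. MiR-136-5p had 1728 scaled CPM in induced E518K clone 8 and 206 in the untreated clone, and 85.8 in induced WT clone 10 and 302 in the untreated clone. In these examples, under TMM scaling, doxycycline went with a higher level in the E518K clone and a lower one in the WT clone. The direction in WT clone 10 depends on the scaling. Its summed members had 12815 counts untreated and 10888 induced, and the miRNAs that need no DGCR8 had 12508 and 4212. Relative to those miRNAs the summed members were thus higher with doxycycline in WT clone 10. MiR-433-5p was under the floor in both states of E518K clone 8, with 13.1 scaled CPM induced and 0 counts untreated, and had 35.3 induced and 33.5 untreated in WT clone 10.

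The medians of the neighbours went another way in WT clone 10. Of the Meg3 and Rian miRNAs with a value, 5 of 8 were over 2-fold higher with doxycycline in E518K clone 8, with a median of 1.49, and 12 of 15 in WT clone 10, with a median of 2.47. Of the cluster from miR-379 to miR-410, 28 of 37 were over 2-fold higher in E518K clone 8, with a median of 2.35, and 29 of 54 in WT clone 10, with a median of 1.16. The members held 23.0% of the counts of the 3 lists in untreated E518K, beside 21.0% to 22.2% in the induced E518K clones, and 48.7% in untreated WT, beside 10.0% to 10.7% in the induced WT clones.

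The arm shares of miR-136 and miR-127 differed more between the vectors than between induced and untreated cells. The 5p share of miR-136 was 80.5% in induced E518K clone 8 and 97.0% (95% interval 84.2% to 99.9%) in the untreated clone, and 10.8% in induced WT clone 10 and 13.6% (11.4% to 16.4%) in the untreated clone. That of miR-127 was 62.3% in induced E518K clone 8 and 57.1% (48.4% to 64.9%) in the untreated clone, and 31.7% in induced WT clone 10 and 20.8% (19.5% to 22.1%) in the untreated clone. In both clones and both states miR-136 and miR-127 had the 5p arm in the majority with the E518K vector and in the minority with the WT vector. This is a description of 4 libraries.

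**Figure D5:**
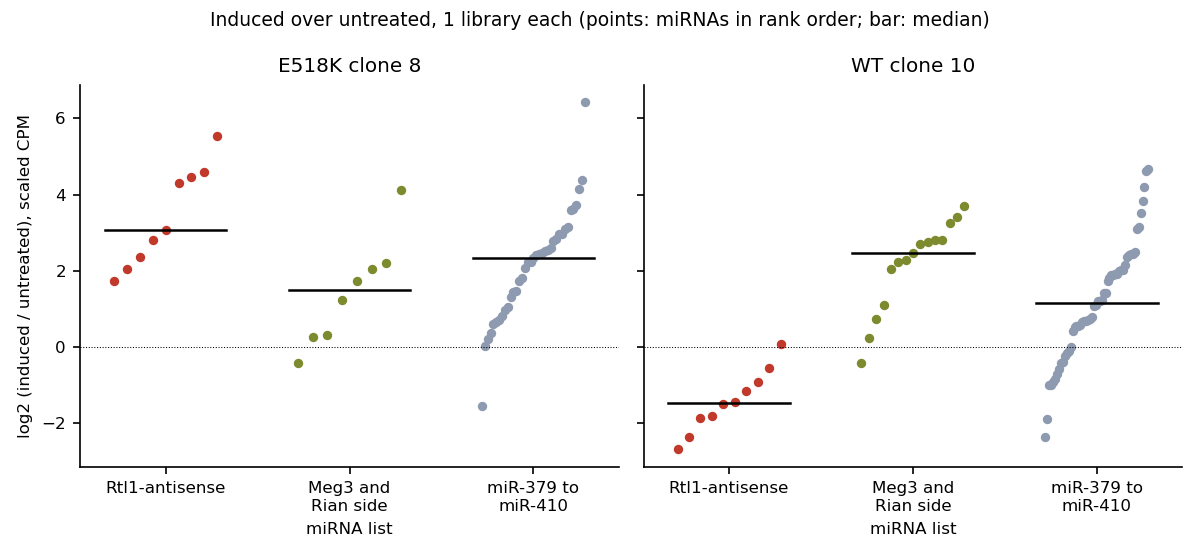
Log2 of induced over untreated scaled CPM for the tested miRNAs of the 3 lists in E518K clone 8 and WT clone 10, with 1 library each, points in rank order and a bar for the median; values under the floor of the clone's shallower library were set to it, and miRNAs at or under it in both are not drawn. The members have a median of 3.06 in E518K clone 8 and of -1.46 in WT clone 10.

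Over the 5 groups the order of levels was much the same from member to member. Untreated WT was highest for 9 of 10 members, with 1 library and under TMM scaling. KO was lowest for 8 of 10 and stood at 0 together with untreated E518K for both arms of miR-433. For miR-434-5p, miR-434-3p and miR-136-3p, KO and untreated E518K were both at or under their floors. These floors were 16.4 scaled CPM on average in KO and 19.1 in untreated E518K, so depth does not resolve which of the 2 was lower. The share of all tested miRNAs with such an order was not counted, and 58.4% of them were lower in KO than in induced WT. The untreated WT value lay within the induced E518K range for miR-127-5p (2169 scaled CPM) and within the induced WT range for miR-433-5p (33.5). MiR-136-5p was the exception at the top, highest in induced E518K, then untreated WT with 302 scaled CPM, untreated E518K with 206, induced WT and KO. For 6 of 10 members induced E518K and induced WT were neighbours in this order and overlapped. With 3 libraries per group, overlap does not show that their levels were the same.

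Likeness was taken as Pearson's r of log2(scaled CPM + 1) over the 11 libraries, which share their groups and depths. The members and both arms of miR-3071 were left out of the ranking beforehand. Of the remaining miRNAs, those most like the higher arm of each hairpin lay mostly outside the region. They were miR-291a-3p (r = 0.989) and miR-292a-3p (0.980) for miR-431-5p, miR-26a-2-3p (0.993) and miR-377-5p (0.993) for miR-433-3p, and miR-30a-3p (0.988) and miR-30a-5p (0.975) for miR-127-3p. For miR-434-5p they were miR-292b-3p and miR-292a-5p (0.990 each), and for miR-136-3p miR-30b-5p (0.989) and miR-26a-5p (0.988). The members, ranked apart, came close to these values. The best member had r = 0.982 for miR-431-5p (miR-434-5p), 0.977 for miR-433-3p and 0.966 for miR-127-3p. It had 0.984 for miR-434-5p and 0.988 for miR-136-3p (miR-434-3p). Among the members, miR-136-5p was the least like each of these 5 arms, with r from 0.671 to 0.742.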

How the data were processed

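The authors deposited read counts of 1966 mature miRNAs in 11 libraries, and the same table in RPM, called pRPM in the file header. After division by 1 constant per library (summed RPM over summed counts), 100% of the deposited RPM values were whole reads within 0.01 and equalled the counts. A count test is therefore the main test. The RPM values summed to the same total in each library of a group, with 85006.4 in KO, 683476 in induced E518K and 938495 in induced WT. The origin of these totals is not stated, and the pRPM scaling among the alternatives carries them. A file labelled as piRNA counts was identical to the RPM file and was not used here. STAR, bedtools and GRCm38.p6 appear in the submitters' processing notes; how reads were trimmed, assigned to strands and counted is not stated. Of counts from 1 to 40, 90.3% were even, so small RNAs may be counted 2 times; of the members' counts, 15 of 20 from 1 to 40 and 29 of 72 above 40 were even. The floor was set at 6 counts (3 small RNAs if so) per library, and Clopper-Pearson 95% intervals were taken on halved counts. Intervals and floors cover counting error only.

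Tests used edgeR 4.0.16 in R 4.3.3: robust quasi-likelihood fit of all 11 libraries in 5 groups, TMM scaling, filterByExpr (minimum count 10, total 15), Benjamini-Hochberg adjustment over 730 miRNAs, threshold 0.05. All adjusted p-values are from edgeR unless limma 3.58.1 (arm ratios, the 6 induced E518K and WT libraries, mean of at least 10 counts per hairpin) or DESeq2 1.42.0 is named. All groups share 1 estimate of the spread, and the untreated libraries are assumed to vary like the others. Alternatives were other scalings, no filter, DESeq2, opposite-strand miRNAs merged, other pseudocounts, and leaving out each library. Hairpins were folded with ViennaRNA 2.7.2, and all 12 mature sequences and 6 hairpins matched RefSeq by name. The members, lists and tests were chosen with earlier results of these data known. Named were the 10 members, both miR-3071 arms and the most abundant miRNA of each list. Also named were the 2 miRNAs, other than members and miR-3071, most like the higher arm of each hairpin in induced WT.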

Additional observations from a re-analysis of the deposited data

Results flagged for a closer look

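Under TMM scaling, the change of induced against untreated cells ran in opposite directions in E518K clone 8 and WT clone 10. This held for 9 of 10 members and both arms of miR-3071, which had counts close to those of miR-136 and may not be further cases. How many of all tested miRNAs did so was not counted. Relative to the miRNAs that need no DGCR8, the summed members were higher with doxycycline in WT clone 10 also. With 1 library per state and clone the difference between the clones was not tested. The log2 difference of induced from untreated in E518K clone 8 minus that in WT clone 10 was 4.296 for miR-431-5p, 4.711 for miR-431-3p, 5.155 for miR-433-3p, 3.909 for miR-127-5p, 4.422 for miR-127-3p, 6.693 for miR-434-5p, 5.218 for miR-434-3p, 4.879 for miR-136-5p and 5.893 for miR-136-3p. It was 5.891 for miR-3071-5p and 4.946 for miR-3071-3p, the names on the strand opposite to miR-136. The values of miR-433-3p, miR-434-5p, miR-434-3p, miR-136-3p and miR-3071-5p are lower bounds, since untreated E518K clone 8 was at or under the floor. MiR-433-5p was under the floor in both states of that clone and has no value. Untreated E518K clone 8 was the shallowest of these 4 libraries with 264507 counts, and its stem cell markers held 1.42% of counts, beside 32.0% in untreated WT clone 10. The part of depth in these values was not tested.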

How the results depend on the processing

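Of the members, 4 were called between E518K and WT. The count was 2 with total counts, 10 with scaling on the DGCR8-independent list (1 higher, 9 lower), 2 of 9 with opposite strands merged, where miR-136-5p was left out as a copy of miR-3071-3p, and 2 to 3 when 1 library was left out (2 without E518K clone 8; 3 higher and 0 lower without WT clone 16, against 2 and 2). The median of all tested miRNAs was -0.14, and 0.21 with total counts, -0.29 with DESeq2 size factors, -0.19 with pRPM and -2.90 with the DGCR8-independent list. Over all tested miRNAs 206 were higher and 258 lower, 227 and 216 with total counts, 177 and 269 with DESeq2 size factors, 183 and 250 with pRPM, 12 and 498 with the list, and 250 and 164 without WT clone 16. The log2 change of miR-127-3p turned to -0.15 with DESeq2 size factors and with DESeq2, -0.031 with pRPM and -2.67 with the list. The list also turned miR-431-3p to -2.21 and miR-127-5p to -1.08 (adjusted p of 0.0066), total counts turned miR-433-3p to 0.015, and total counts turned miR-127-5p in KO against WT to 0.20. Leaving out 1 library gave ranges across 0 for miR-431-5p (-0.73 to 0.53), miR-433-3p (-0.59 to 0.42), miR-434-5p (-0.79 to 0.18), miR-434-3p (-0.99 to 0.25), miR-127-3p (-0.058 to 0.74) and the arm ratio of miR-434 (-0.21 to 0.45). The 25 hairpins called for their arm ratio became 12 with a pseudocount of 0.5, 66 with 10, 11 with both arms at 50 counts or more, and 10 to 32 without 1 library (12, 10 and 11 without WT clones 10, 12 and 16). Of the other values, 504 single values kept their direction and side of the threshold and 83 counts stayed within 1.5 times, and the cause of each change was not tested. No paired analysis was possible because the groups share fewer than 2 replicate numbers. Depth limits KO and untreated E518K, whose floors of 6 counts were 12.8 to 18.3 and 19.1 scaled CPM.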
